A study of Mus musculus with 30 samples.

Results

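The stable difference between p38α-/- and wild type mouse embryonic fibroblasts (MEFs) was described by setting all 8 arrays of p38α-/- MEFs against all 22 arrays of wild type MEFs, the whole of a series of 30 arrays. MEFs are cells grown from mouse embryos, here immortalised, and Mapk14 encodes p38α, the stress-activated kinase targeted in the knockout. The wild type arrays held 11 groups of 2: anisomycin (25 ng/ml, 45 min), TNFα (100 ng/ml, 45 min) and 100 mM NaCl for 3 times (45 min, 2 h, 8 h), these 5 treatments also with SB203580, an inhibitor of p38α and p38β, and SB203580 without stress. The p38α-/- arrays held 4 groups of 2: untreated, anisomycin, TNFα and NaCl for 2 h, at the same doses. SB203580 was given at 10 µM for 30 min before the stress according to the protocol, whereas the sample titles give 10 mM and 2 h. The Cy5 label marked the sample on every array, and Cy3 the common reference, pooled from untreated wild type MEFs, so each value is a log2 ratio to untreated wild type cells, and untreated wild type MEFs exist only as that pool. The labels name no second line of either genotype, so line and genotype cannot be told apart, and every p-value below measures the spread between cultures and arrays of these lines. The main fit treated arrays as independent, with no block for replicate or scan day. Arrays of the same replicate number shared shifts within a genotype, so its standard errors and p-values may understate the spread between experiments.

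p38 kinases are switched on by the dual-specificity kinases MKK3 and MKK6 when cells meet osmotic shock, cytokines or inhibitors of translation, and they act on further kinases and on transcription factors. In fibroblasts the pathway is known for rapid control of immediate early and cytokine mRNAs. The comparison here asks which mRNAs differ between the genotypes whether or not a stress was applied.

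Of 19206 autosomal genes on the array, 15099 could be fitted. A gene was called when the difference between the mean of the 4 p38α-/- groups and the mean of the 11 wild type groups was at least 1 on the log2 scale (2-fold) with an adjusted p under 0.05. In this comparison 43 genes (0.285% of those tested) were higher and 65 (0.43%) were lower in p38α-/- MEFs, together 0.715%. A called gene was said to separate the genotypes when every measured p38α-/- array lay on the same side of every measured wild type array, which left 27 higher genes (0.179%) and 36 lower genes (0.238%), 63 in all. These values chose the 63 genes, so their size in the same contrast is a description. Just inside the 2-fold threshold lay Xdh at -1.02 and Ddit4l at -1.03, and just outside it, also with no overlap, lay Igtp at 0.99 and Tmeff1 at -0.98. Whatever the size of the difference, 1.14% of genes did not overlap between the genotypes. A further 105 genes with an adjusted p under 0.05 did not overlap but differed by less than 2-fold, and 17.9% of all tested genes passed the adjusted p alone.

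The arrays of the genotypes overlapped in overall signal. Median processed Cy5 signal lay between 832 and 1526 on p38α-/- arrays and between 944 and 1870 on wild type arrays. In Cy5, 81.1 to 95.3% and 89.3 to 96.8% of their spots were well above background. The second p38α-/- arrays of anisomycin and of NaCl, at 83.2 and 81.1%, lay below every wild type array. The Cy3 pool should not differ between genotypes, and its signal alone gave 1 call among the 15099 genes (0.00662%) and none among the 63. In Cy5 alone 51 of the 63 were called, against 0.947% of all genes, but only 21 were both called and free of overlap between the genotypes. The Cy5 difference kept the sign of the ratio in 63 of 63 genes, with a median size of 1.33, against 0.14 in Cy3. MEF markers were well above background in both genotypes for 10 of 12 genes, and none of the 9 fitted was called. That check has little power here, since leukocyte markers passed it too, 13 of 13.

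The arrays were scanned on 4 days, and this bears on every value below. The 11 first wild type arrays were scanned on the first day, the 11 second wild type arrays and the 4 first p38α-/- arrays on the second, and the 4 second p38α-/- arrays later. Within the second day, which holds both genotypes, 63 of 63 genes kept their direction, as the rule of no overlap requires of any subset of arrays. Of the 63, 46 were called there, where 1.01% of 17087 tested genes were called. Of the other 17, 16 fell under 2-fold there, and Pimreg had a difference of 1.07 with an adjusted p of 0.0854. The median within-day difference was 0.899 of the difference over all arrays. In 46 of 63 genes the second p38α-/- arrays lay farther from wild type than the first ones.

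**Figure D1:**
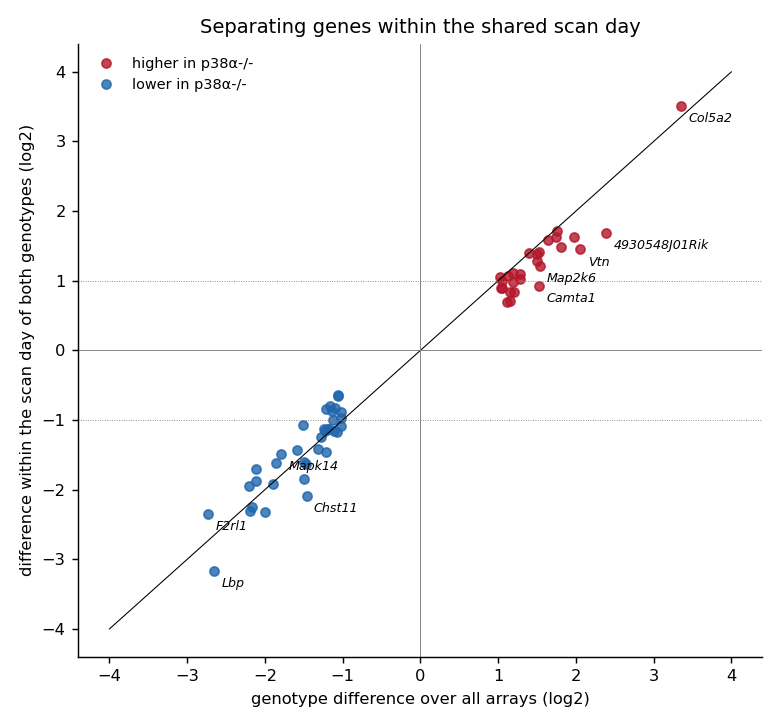
The difference between p38α-/- and wild type MEFs (log2) over all 30 arrays (x axis) is plotted against the difference within the scan day that holds both genotypes (y axis), 1 point per separating gene (red higher, blue lower in p38α-/- MEFs), with the line of equality and dotted lines at 2-fold. All 63 points keep their direction, which the rule of no overlap fixes. Camta1, at 1.53 over all arrays and 0.92 within the day, is among the 16 that fall under 2-fold.

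The targeted gene came first as a check of the labels. Mapk14 was measured by 1 probe on 6 p38α-/- arrays, with log2 ratios from -2.24 to -0.94 (median -1.19), and on 16 wild type arrays, with ratios from 0.05 to 1.31 (median 0.37). All p38α-/- arrays lay below all wild type arrays. The difference was -1.79 (SE 0.18, limma adjusted p = 7.7e-05), a 3.47-fold lower ratio, and -1.49 within the shared scan day. Where this probe lies relative to the deleted part of the gene is not given in the sources used here. Mapk14 ranked as number 11 by size among the 36 lower genes.

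The other p38 kinases did not separate the genotypes. Mapk11, which encodes p38β, the other target of SB203580, had a difference of 0.33 (SE 0.07, adjusted p = 0.0049) and ratios from 0.01 to 0.66 on p38α-/- arrays against -0.46 to 0.21 on wild type arrays, which overlap. With the arrays of SB203580 left out the difference was 0.33 with an adjusted p of 0.0619. Mapk12 (p38γ) had a difference of -0.10 (adjusted p = 0.23). Mapk13 (p38δ) was measured on 6 and 10 arrays, too few groups for the fit, with ratios from -0.97 to -0.51 and from -0.98 to -0.50.

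Over all genes 0.715% were called and 17.9% passed the adjusted p alone, which are the shares to set beside each gene list. Among 18 fitted kinases and targets of the pathway besides Mapk14, 1 was called. Map2k6, which encodes MKK6, an activator of p38, had ratios from 0.98 to 2.25 (median 1.16) on the 8 p38α-/- arrays and from -0.85 to 0.35 (median -0.27) on the 22 wild type arrays. The groups did not overlap, and the highest value, the second anisomycin array, stood apart from the other 7, which ended at 1.29. The difference was 1.53 (SE 0.12, adjusted p = 1.2e-07) and 1.21 within the shared scan day. Both of its probes moved, by 1.35 and 1.65. Map2k3, which encodes the related activator MKK3, had a difference of 0.24 (adjusted p = 0.13), and Map2k4 one of -0.26 (adjusted p = 0.15). Passing the adjusted p under 2-fold were Rps6ka4, which encodes the chromatin-directed kinase MSK2, at 0.53, and Mef2c, a transcription factor that p38 phosphorylates, at -0.53.

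Promoter sequences from RefSeq (GRCm38.p6; 250 bases before to 50 after the first listed start) were found for 43 of the 63 genes. They are shown for Map2k6, as the pathway member, and for Vtn and Il1rl2, the genes with the largest higher and lower difference among the named genes with a promoter in the table. Each runs 5′ to 3′ on the gene's own strand, and capitals mark the matches. The window of Map2k6, chr11:110398852-110399151, plus strand, holds TGATTCA. It matches the AP-1 search letters TGANTCA, in which N is any base, and its use as a site was not tested.
Map2k6: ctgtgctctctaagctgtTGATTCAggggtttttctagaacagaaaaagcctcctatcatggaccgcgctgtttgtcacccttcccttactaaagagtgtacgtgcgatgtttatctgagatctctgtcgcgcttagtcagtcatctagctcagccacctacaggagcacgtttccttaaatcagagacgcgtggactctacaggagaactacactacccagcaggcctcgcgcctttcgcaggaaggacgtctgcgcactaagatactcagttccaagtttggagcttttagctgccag
The window of Vtn, chr11:78498870-78499169, plus strand, holds TATAAA on both strands, and the matches overlap.
Vtn: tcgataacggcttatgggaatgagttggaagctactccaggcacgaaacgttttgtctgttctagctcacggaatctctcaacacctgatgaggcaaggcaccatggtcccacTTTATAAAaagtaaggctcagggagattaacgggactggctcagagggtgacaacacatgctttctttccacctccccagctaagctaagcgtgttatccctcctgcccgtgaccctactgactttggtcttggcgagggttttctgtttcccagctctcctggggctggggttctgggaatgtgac
The window of Il1rl2, chr1:40324339-40324638, plus strand, holds TATAAA on the opposite strand.
Il1rl2: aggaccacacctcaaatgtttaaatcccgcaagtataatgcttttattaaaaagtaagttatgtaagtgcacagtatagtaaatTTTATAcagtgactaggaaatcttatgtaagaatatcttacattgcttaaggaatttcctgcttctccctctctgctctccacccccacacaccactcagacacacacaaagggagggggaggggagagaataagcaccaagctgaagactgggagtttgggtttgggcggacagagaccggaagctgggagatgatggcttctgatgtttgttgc
Searched on both strands of all 43 windows were the loose AP-1 letters TGANTCA and the cyclic AMP response element TGACGTCA. The MEF2 site (CTA and TAG with 4 bases of any kind between them) and the TATA box TATAAA were searched too. The AP-1 letters were in 2 of the 43 windows (4.65%), those of Map2k6 and Fam110c, against 7.93% of all 27025 promoters. TATAAA was in 5 (11.6%), those of Aldh1a7, Ddit4l, Il1rl2, Mab21l2 and Vtn, against 14.2%. The cyclic AMP response element and the MEF2 site, found in 1.88% and 3.70% of all promoters, were in 0 of the 43.

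Genes of the extracellular matrix held the gene with the largest difference over the 15099 fitted. Col5a2, which encodes the α2 chain of the fibrillar type V collagen, had ratios from 3.29 to 3.97 (median 3.51) on 7 p38α-/- arrays and from -0.07 to 0.56 (median 0.17) on 19 wild type arrays. The gap between the genotypes, 2.73, was the widest among the 63 genes, and the p38α-/- groups differed little among themselves. The difference was 3.36 (SE 0.09, adjusted p = 3.3e-12), a 10.2-fold higher ratio, and 3.51 within the shared scan day.

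The other fitted chain genes of type V collagen, Col5a1 and Col5a3, had differences of 0.49 (adjusted p = 0.017) and 0.31 (adjusted p = 0.25). Of 22 fitted collagens, 1 was called higher and 1 lower, with a median difference of 0.11, against 0.02 over all genes. The lower one was Col14a1, a fibril-associated collagen, at -1.08 (SE 0.09, adjusted p = 2.8e-07). Its 2 probes disagreed, at -2.04 and -0.03.

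Vtn encodes vitronectin, an adhesive glycoprotein of plasma and matrix. On a list of 52 fitted matrix glycoproteins and proteoglycans, which left out Prg4, Vtn was the called gene. Its 8 p38α-/- arrays were spread from 0.68 to 3.57 (median 1.89), and its wild type arrays lay between -0.93 and 0.56. The untreated p38α-/- arrays alone gave 0.68 and 3.01, so the size of the difference, 2.06 (SE 0.27, adjusted p = 3.9e-05), is loosely set. Within the shared scan day it was 1.45. Grin3a, which encodes a subunit of NMDA receptors, was spread in the same way, from 0.57 to 3.06 against -0.61 to 0.56, with a difference of 1.81 (SE 0.24). Another entry of the array for Grin3a, measured on all 30 arrays, differed by 0.0007 (limma adjusted p = 0.999). The unnamed transcript 4930548J01Rik on chromosome 17 was also widely spread, from 0.85 to 4.32 against -0.25 to 0.34, with a difference of 2.39 (SE 0.30).

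Cthrc1, a secreted protein with a short collagen-like stretch, had a difference of 1.75 (SE 0.15), with p38α-/- arrays from 1.46 to 2.68 and wild type arrays from -0.15 to 1.17. It rested on 1 of 2 probes, at 3.34 and 0.17, and was not called by its brighter probe (adjusted p = 0.389). Prg4 encodes lubricin, the proteoglycan that coats joint surfaces, and was lower: ratios ran from -2.14 to -0.76 (median -1.36) on p38α-/- arrays and from -0.09 to 0.99 (median 0.57) on wild type arrays, with a difference of -1.86 (SE 0.14, adjusted p = 4.5e-08). None of 27 fitted matrix proteases and inhibitors and none of 10 contractile genes was called. The adjusted p alone was passed by 2 and 1 of them, against 17.9% of all genes.

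**Figure D2:**
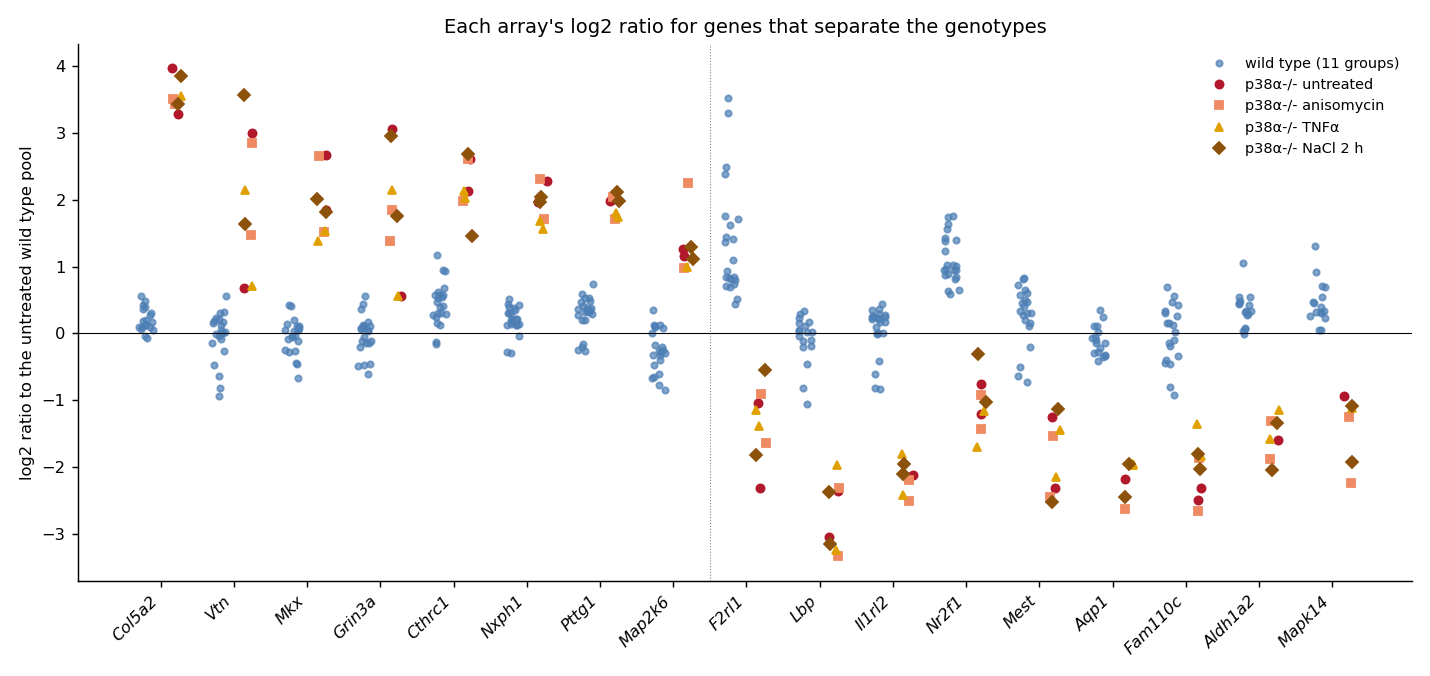
The log2 ratio of each array to the untreated wild type pool (y axis) is shown for 8 named genes with the largest higher and 8 described genes with the largest lower difference, and for Mapk14 (x axis), with wild type arrays as blue circles and p38α-/- arrays by treatment. The genotypes do not overlap for any gene shown, Col5a2 has the widest gap at 2.73, and Vtn spreads from 0.68 to 3.57 among p38α-/- arrays.

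Among the higher genes were also some that encode known regulators, picked out here by name and not by a list. Mkx (array name 9430023B20Rik), a homeobox factor of tendon, had ratios from 1.39 to 2.66 on p38α-/- arrays and from -0.67 to 0.43 on wild type arrays, with a difference of 1.97 (SE 0.13, adjusted p = 8.5e-09). Mab21l1 and Mab21l2, related genes known from eye development, lie on the same chromosome and differed by 1.28 (SE 0.10) and 1.28 (SE 0.12). Camta1, a calmodulin-binding transcription activator, differed by 1.53 (SE 0.18), but by 0.92 within the shared scan day. Tshz2 (array name 2900073F20Rik), a zinc finger factor, differed by 1.53 (SE 0.14), while another entry of the array for the same RefSeq gene differed by 0.20 (adjusted p = 0.25).

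In all, 6 of the 63 genes had a further entry under the same RefSeq symbol. Those other entries differed by -0.25 to 0.35, with Camta1 at -0.09 and Adam23, which encodes a disintegrin-like adhesion protein, at 0.04. Of 24 separating genes with several probes, 12 had a probe that moved by less than 0.2 and 5 had probes of opposite sign. For Map2k6, Nxph1 and Dynlt1b all probes moved by at least 2-fold.

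Nr2f1, which encodes the orphan nuclear receptor COUP-TFI, was lower. Its ratios ran from -1.71 to -0.31 (median -1.10) on p38α-/- arrays and from 0.60 to 1.76 (median 0.99) on wild type arrays, with a difference of -2.17 (SE 0.10, adjusted p = 1.0e-10). The gap lay on both sides of the pool: wild type arrays were all above it and p38α-/- arrays all below, and untreated p38α-/- MEFs were at -0.98 against the pool. Of 54 fitted factors of limb, branchial and trunk identity, Tcf21 (1.52, SE 0.18) and En1 (1.24, SE 0.17) were called higher and none lower, and both overlapped between genotypes. Among 31 fitted Hox genes, which record position along the body, none was called. The adjusted p alone was passed by 6 of them, against 17.9% of all genes. Differences over the list ran from -0.41 to 0.66.

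Genes of division, the cytoskeleton and other functions follow. Pttg1 encodes securin, which holds separase inactive until anaphase, and had ratios from 1.72 to 2.11 on p38α-/- arrays and from -0.26 to 0.73 on wild type arrays. Its difference, 1.64 (SE 0.05, adjusted p = 1.0e-13), had the smallest adjusted p among the 63. It was the called gene among 35 fitted genes of mitosis, whose median difference was 0.07. Ccnd1, which encodes the G1 cyclin D1, was the called gene among 29 genes of DNA replication and G1/S, with a 2.14-fold higher ratio (adjusted p = 3.2e-05) and 2 wild type arrays inside the p38α-/- range. Dynlt1b (array name Tctex1), a light chain of the dynein motor, differed by 1.50 (SE 0.08), but mouse has near-identical copies of it that a probe may not tell apart. Nxph1, which encodes neurexophilin 1, a secreted ligand of neurexins, differed by 1.74 (SE 0.08), with p38α-/- arrays from 1.56 to 2.31 against -0.30 to 0.51, and all 3 of its probes moved, by 1.34 to 2.08. Ankrd29 differed by 1.50 (SE 0.08) on the strength of 1 of 2 probes, at 3.07 and -0.14. Samd9l (array name AA175286), an interferon-inducible gene, differed by 1.40 (SE 0.10), with p38α-/- arrays from 0.37 to 1.39 against -1.31 to 0.23. The list of interferon response genes left out Samd9l. None of its 44 fitted genes was called, and 7 passed the adjusted p alone, against 17.9% of all genes.

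Receptors, a water channel and a secreted binding protein were among the lower genes. F2rl1 encodes PAR2, a receptor that trypsin-like proteases switch on. Its ratios ran from -2.32 to -0.55 (median -1.27) on p38α-/- arrays and from 0.43 to 3.52 (median 1.02) on wild type arrays, with a difference of -2.73 (SE 0.15, adjusted p = 9.3e-10), the largest lower one. Wild type arrays were all above the pool, and the wild type groups with NaCl for 8 h, at 3.41 without and 2.44 with SB203580, lay above the other 9, of which the highest was 1.73. Against the pool, untreated p38α-/- MEFs were at -1.68.

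Lbp encodes the lipopolysaccharide-binding protein. It ran from -3.34 to -1.98 (median -2.71) on p38α-/- arrays and from -1.05 to 0.34 (median 0.02) on 18 wild type arrays, with a difference of -2.65 (SE 0.18, adjusted p = 3.0e-07) and -3.16 within the shared scan day. The first and second p38α-/- arrays stood apart, with means of -3.19 and -2.26.

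Il1rl2, the receptor for interleukin 36, had a difference of -2.20 (SE 0.08, adjusted p = 2.9e-12), with ratios from -2.51 to -1.81 against -0.83 to 0.43. One probe moved by -4.30 and the other by -0.10, and with the second alone, the one with an NM accession, the gene was not called (adjusted p = 0.499). Aqp1, the water channel aquaporin 1, ran from -2.64 to -1.96 on 6 p38α-/- arrays and from -0.41 to 0.34 on 17 wild type arrays, with a difference of -2.12 (SE 0.09, adjusted p = 5.7e-08). Fxyd3, a regulator of the sodium pump, differed by -1.49 (SE 0.07), with ratios from -1.30 to -0.99 against -0.20 to 0.85.

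Other lower genes act in retinoid, lipid and Wnt biology. Aldh1a2 encodes the dehydrogenase that makes retinoic acid. It ran from -2.04 to -1.15 on 7 p38α-/- arrays and from -0.01 to 1.05 on 16 wild type arrays, with a difference of -1.89 (SE 0.14, adjusted p = 5.4e-06). Aldh1a7, a related dehydrogenase, differed by -1.59 (SE 0.14, adjusted p = 2.5e-07), and these were the 2 called genes among 44 fitted genes of glutathione metabolism and detoxification, whose median was -0.01. Fabp5, a fatty acid-binding protein, differed by -1.50 (SE 0.18) and by -1.07 within the shared scan day. Sfrp2, a secreted protein that binds Wnt ligands, differed by -1.50 (SE 0.13) and was the called gene among 38 fitted genes of the Wnt pathway. Fam110c (array name 9030611O19Rik) had a 4.01-fold lower ratio (SE 0.10 on the log2 scale, adjusted p = 1.4e-09), with its 2 probes at -2.56 and -0.46.

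Mest, an imprinted gene expressed from the paternal copy, ran from -2.53 to -1.14 (median -1.84) on p38α-/- arrays and from -0.73 to 0.82 (median 0.34) on wild type arrays, with a difference of -2.12 (SE 0.17, adjusted p = 2.4e-07). The second p38α-/- arrays averaged -2.36 and the first -1.34. Igf2, an imprinted growth factor, was called at -1.01 (SE 0.17, adjusted p = 0.00042) with overlap, at -1.27 on the first and -0.31 on the second p38α-/- arrays. Of 36 fitted imprinted genes these were the 2 called (0.715% of all genes were), both lower, and the median of the list was -0.08. In all, 15 of the 36 passed the adjusted p, against 17.9% of all genes, in both directions: Cdkn1c was at -0.78 and Grb10 at 0.67.

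Further members were each the only called gene of their list. They were Cfi, a protease of the complement system (-1.19, SE 0.09), and Cd24a, a surface glycoprotein (-1.47, SE 0.11). Cfi was among 24 complement and acute phase genes, a list that left out Lbp. Cd24a was among 32 adhesion genes. Kdr, the receptor VEGFR2 (-1.60, SE 0.18), was called beside Igf2 among 41 growth factors and receptors. Fst, the activin antagonist follistatin (-1.91, SE 0.14), was called among 32 genes of the TGF-β and BMP pathway and Slc39a8, a zinc transporter (-1.01, SE 0.15), among 10 genes of metal handling. Kdr, Fst and Slc39a8 each had 1 wild type array inside the p38α-/- range, and Slc39a8 had an adjusted p of 0.0557 within the shared scan day. The probes of Slc39a8 disagreed, at -1.89 and -0.14. H2-K1 (1.24, SE 0.12) and H2-DMb1 (1.11, SE 0.13) were called higher among 23 genes of antigen presentation, whose median was 0.23, and both overlapped. Histocompatibility genes are close copies, and a probe may read several of them. None of 30 chemokine genes and none of 25 p53 and arrest genes was called. The adjusted p alone was passed by 6 and 7 of them, against 17.9% of all genes.

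Kdr is also an endothelial marker, and that list is therefore summarised. Of 12 endothelial markers, 11 were autosomal genes of the array, 9 were well above background on most arrays of each genotype, and none of the 11 was below it on every array. Their mean ratio, Kdr included, ran from -0.41 to -0.05 on p38α-/- arrays and from -0.23 to 0.08 on wild type arrays. Of 8 fitted genes Kdr alone was called. The 8 differences ran from -1.60 to 0.10 with a median of -0.04, and 1 passed the adjusted p. The part of such cells in the result for Kdr was not tested, and fewer cells of a type and less RNA per cell cannot be told apart in these bulk samples. In the lists of epithelial, leukocyte, muscle, neural, cartilage and bone, and adipocyte markers, none was called.

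The question whether the difference depends on the stress was addressed by taking each matched pair of groups alone. Because these comparisons share arrays with the contrast that chose the genes, they describe its parts. With anisomycin, 45 of 63 genes were called, against 0.669% of all genes. With NaCl for 2 h 35 were called (0.397% of all genes), and with TNFα 23 (0.265%). Untreated p38α-/- MEFs set against the pool gave 39 calls among the 63 (1.69% of all genes). That comparison sets Cy5 against Cy3, and no array swapped the dyes. A dye or pool effect on a gene would remain in it, whereas it would cancel in the matched pairs. The sign was the same in all 4 settings for 63 of 63 genes, which the rule of no overlap fixes for the matched stresses. In each of the 4 settings 24 genes differed by at least 2-fold. The median size of the 63 differences was 1.50 in anisomycin, 1.20 in TNFα, 1.42 in NaCl for 2 h and 1.21 for untreated cells against the pool. Single arrays moved the counts over all genes: the 101 calls for anisomycin became 165 and 31 without the first or second p38α-/- array and 30 without the first wild type one. The 60 calls for NaCl became 166 and 25 without the first or second p38α-/- array, the 255 for untreated cells 117 and 497, and the 40 for TNFα 13 without the first p38α-/- array. Col5a2 differed by 3.35, 3.45, 3.29 and 3.63 in the same order, and Lbp by -2.79, -2.70, -2.85 and -2.71.

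The test of the dependence itself was an F test that the matched differences of the 3 stresses are equal, on arrays that the rule of no overlap also used. None of the 15099 genes passed at an adjusted p of 0.05 (limma), and 215 (1.42%) had an unadjusted p under 0.05. Among the 63 genes 4 did (6.35%). Mab21l1 differed by 1.54 in anisomycin, by 0.53 in TNFα and by 1.94 in NaCl (unadjusted p = 0.0013). Srrm4 (array name 1500001A10Rik), a neural splicing factor, had -2.61, -0.71 and -1.26 (unadjusted p = 0.0015), Fam110c -2.89, -1.91 and -1.68 (unadjusted p = 0.0059) and Tshz2 2.45, 1.40 and 0.75 (unadjusted p = 0.0095). Over all arrays the probes of Srrm4 differed by -2.28, -0.47 and 0.02. A p above the threshold does not show that the differences were equal. The fit had no block for replicate or scan day, and the F test was not run with one.

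**Figure D3:**
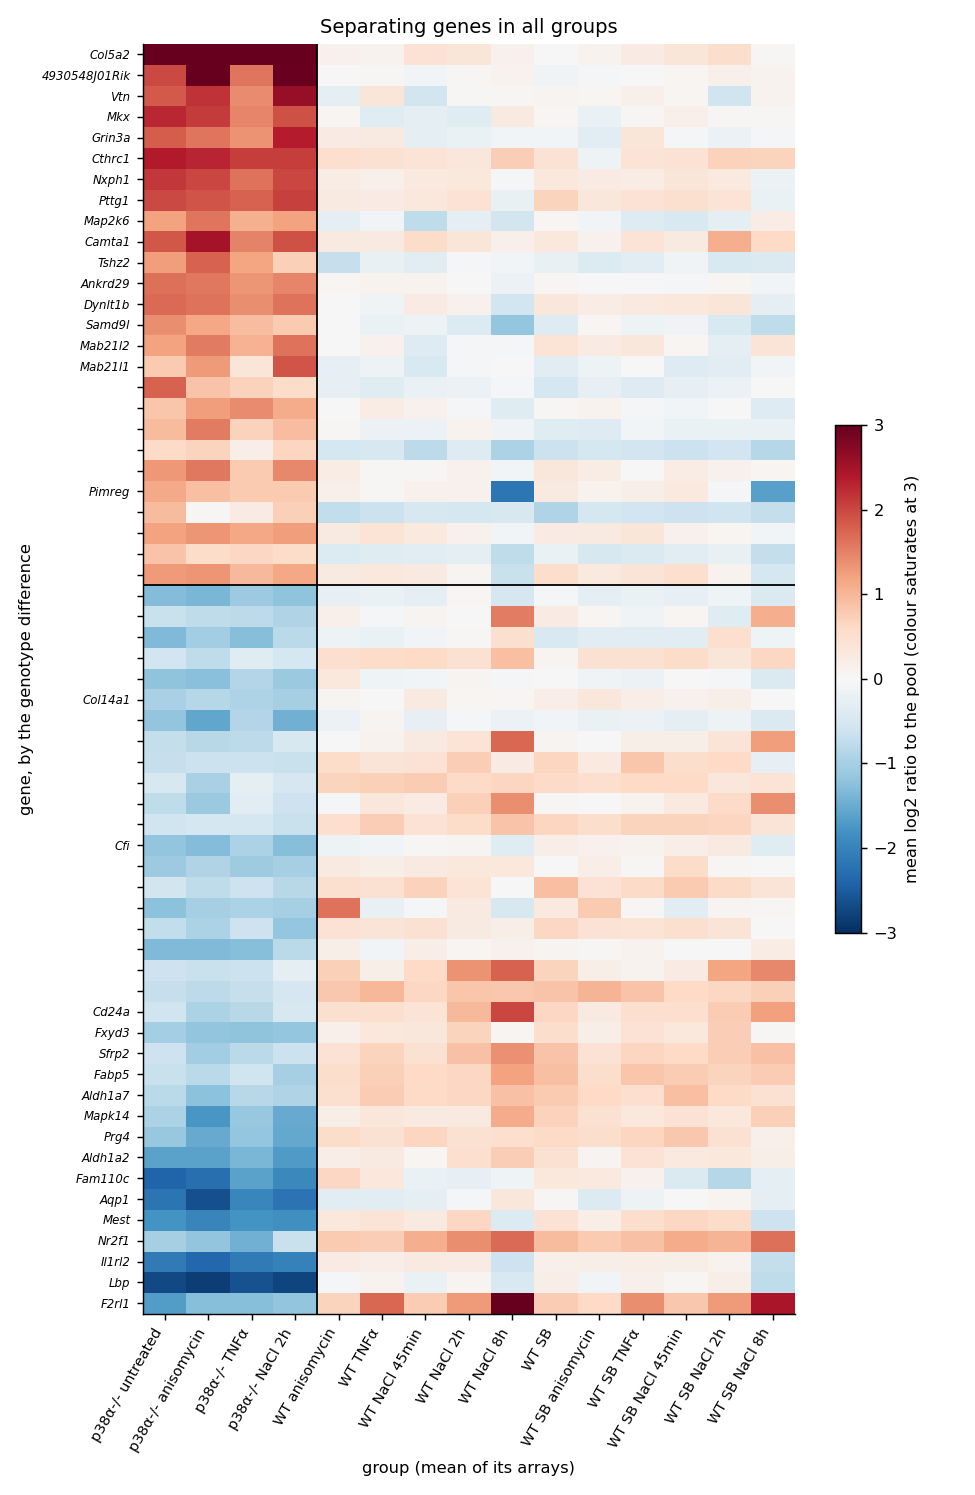
The mean log2 ratio to the untreated wild type pool (colour, red higher and blue lower) is shown for 61 of the 63 separating genes (rows, by genotype difference, with the names of the main ones described in the text) in the 4 p38α-/- groups and the 11 wild type groups (columns). Each row keeps its side in all p38α-/- groups, and the wild type column with NaCl for 8 h stands out for F2rl1 (3.41) and Pimreg (-2.18).

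The wild type groups differed among themselves, which is given as levels with no test. The group with NaCl for 8 h was the highest of the 11 wild type groups for 19 of the 63 genes and the lowest for 14. F2rl1 was among the former. Cd24a (2.01), Hspa1a (1.77), Slc38a4 (1.71) and Ddit4l (1.54) also had their highest wild type level in that group. Hspa1a encodes the inducible heat shock protein 70, has a near-identical neighbour that probes may read too, and had 2 of its 4 probes near 0, at 0.01 and 0.15. Pimreg (array name 6720460F02Rik), a gene of dividing cells, was among the latter, at -2.18 with NaCl for 8 h and -1.63 with SB203580 added, against 1.13 in untreated p38α-/- MEFs. p38α-/- MEFs were not exposed to NaCl for 8 h, so no matched value exists. Without the NaCl groups of 8 h, 54 of 63 genes were called, and the sign of all 63 was fixed by the rule of no overlap. With the 3 matched stresses alone 51 were called. Pimreg had a difference of 0.76 without the 8 h groups and 0.71 in the matched stresses, and Ddit4l, a relative of the stress-induced gene Ddit4, had -0.79 and -0.85. For both, as for Slc38a4 (-0.88 and -0.87), the 2-fold threshold was reached with the unmatched wild type groups included. Within p38α-/- MEFs, the mean of the 3 stressed groups minus the untreated group was called for none of the 63 genes and for 8 genes (0.053%) of all. At an unadjusted p under 0.05 there were 4 of the 63, against 4.86% of all genes.

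Inhibition of p38 in wild type cells was compared with its loss. The effect of SB203580 was the mean of the 5 stressed groups with it minus the mean of the 5 without. The genotype difference weights these groups equally, but the rule that arrays must not overlap used all 12 wild type arrays with SB203580, so a gene that the inhibitor moved to the p38α-/- level could not be among the 63. The 108 called genes, chosen without that rule, are therefore given too: none was called or passed the adjusted p for SB203580, and 9 (8.33%) had an unadjusted p under 0.05. Among all genes 2 (0.0132%) were called, both lower with SB203580: Zfp36, which encodes the mRNA-destabilising protein tristetraprolin (-1.23, adjusted p = 0.00020), and the early growth-arrest gene Btg2 (-1.04, adjusted p = 0.021). None of the 63 separating genes was called or had an adjusted p under 0.05, which 0.0596% of all genes had. At an unadjusted p under 0.05 there were 5 (7.94%), against 4.18% of all genes. The median size of their effects was 0.07, against 0.06 over all genes. Taken in the direction of the genotype difference the median was 0.05, and 43 of 63 had the sign of the genotype. Col5a2 had an effect of 0.02 and Lbp one of 0.01. The inhibitor was added to the cultures for the experiment, whereas the knockout line lacks the gene throughout, so the times are not matched.

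**Figure D4:**
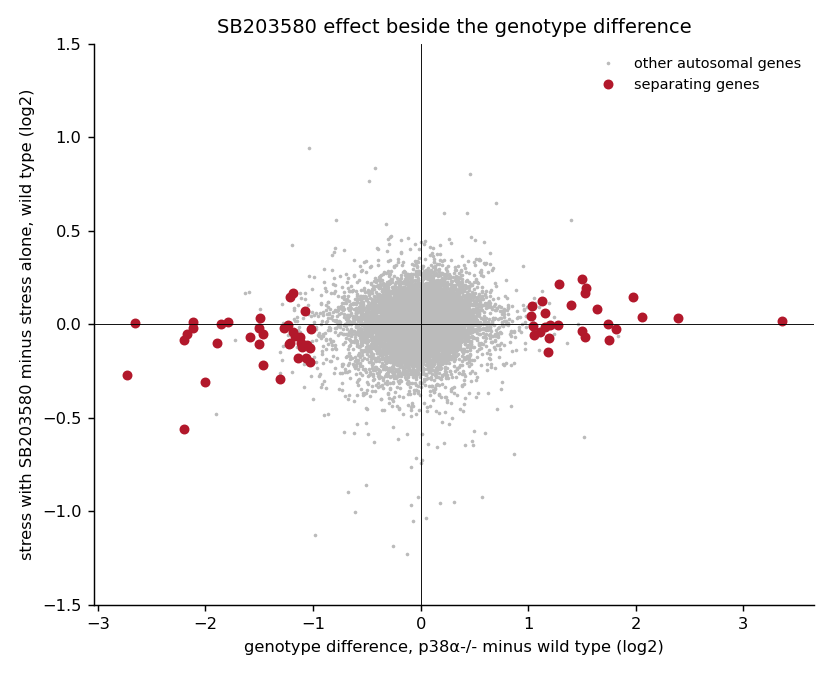
The effect of SB203580 in stressed wild type MEFs (log2, y axis) is plotted against the genotype difference (log2, x axis), with the 63 separating genes in red and the other autosomal genes in grey. The separating genes reach from -2.73 to 3.36 on the x axis and have a median size of 0.07 on the y axis.

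The position of the genes was examined next. Of the 50 fitted genes nearest to Mapk14 on chromosome 17, 25 on each side in RefSeq order, none was called, and their differences ran from -0.57 (Hmga1) to 0.52 (Fkbp5). Of these neighbours 12 (24%) passed the adjusted p alone, against 17.9% of all genes. Chromosome 17 held 7 of the 63 genes among 672 fitted (1.04%) and chromosome 3 held 8 among 805 (0.994%), the largest shares. Over all fitted genes 0.179% separated the genotypes as higher and 0.238% as lower. On the other autosomes the share in both directions ran from 0 on chromosomes 8 and 16 to 0.665% on chromosome 6. Genes next to each other were few. On chromosome 17, 4930548J01Rik and Tmem242 (1.04) were adjacent among the fitted genes and Dynlt1b followed after 6 more, all higher, whereas the adjacent Ehd3 (1.04) and Xdh (-1.02) had opposite signs.

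Whole chromosomes differed slightly. The median ratio over all genes of a chromosome was compared between the 4 p38α-/- and 11 wild type group means by an exact two-sided permutation test, whose smallest p over 1365 regroupings is 0.000733. After adjustment over 19 autosomes 12 passed. Chromosome 3 was lowest, at -0.10, with p38α-/- groups from -0.07 to -0.04 and wild type groups from 0.02 to 0.08 (adjusted p = 0.0017). Chromosome 11 was highest, at 0.07, with p38α-/- groups from 0.05 to 0.07 and wild type groups from -0.03 to 0.00 (adjusted p = 0.0017). On chromosome 11 the 5 separating genes, among them Map2k6, Vtn and Pttg1, were all higher, and on chromosome 3, 6 were lower and 2 higher.

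**Figure D5:**
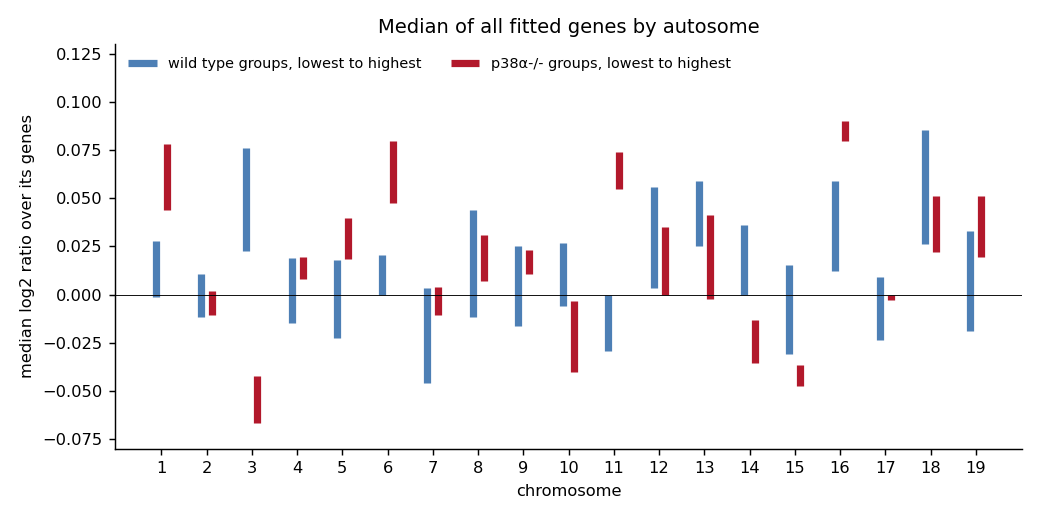
The median log2 ratio over all fitted genes of each autosome (y axis, chromosomes on the x axis) is shown as the range over the 11 wild type groups (blue) and the 4 p38α-/- groups (red). The ranges are apart for chromosome 3, p38α-/- groups from -0.07 to -0.04 against 0.02 to 0.08, and for chromosome 11, from 0.05 to 0.07 against -0.03 to 0.00. They are also apart for chromosomes 1, 5, 6, 14, 15 and 16.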

How the data were processed

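RNA from MEFs of both genotypes, amplified in successive rounds, was hybridised to 30 Agilent 44K 2-colour arrays (15 groups of 2). The authors extracted the spots with Agilent Feature Extraction (8.1.1.1 in the file headers, 9.1 in the submitters' processing notes), and the deposited log10 ratio is that of Cy5 to Cy3 after dye normalization by the software. The deposited intensities were used for the single channels and for the background flags. The authors' series matrix, on a log2 scale judged from its values, was used as an alternative.

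Control spots and spots marked as outliers (6.78 to 44.8% per array) were left out, ratios were put on the log2 scale, and means were taken over replicate spots and then over the probes of each gene. Where a probe is missing on an array, the gene mean rests on the others. Chromosomes came from RefSeq (GRCm38.p6): 15887 of 16836 NM accessions matched, and 19206 of 21689 genes were autosomal. Genes on sex chromosomes were not reported. limma 3.58.1 (R 4.3.3) fitted 15 group means, with Benjamini-Hochberg adjustment over all 17149 genes in the fit. Other steps used scipy 1.17.1 in Python 3.11.15. On simulated data 98% of genes changed by 1.5 log2 units and 100% of those changed by 3 were called, with 0 unchanged genes called. The simulated arrays held no effect of scan day or replicate, so these values do not give the rate of false calls on the real arrays. The number of arrays limits the precision. No 2 arrays were alike beyond a correlation of 0.829.

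Replicate numbers were checked by correlating the difference between the 2 arrays of a group across groups. The correlation exceeded 0.1 for all 55 wild type pairs and all 6 p38α-/- pairs, but for 6 of 44 pairs across genotypes, so the numbers pair arrays within a genotype, where they follow the scan days, and not between genotypes.

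Named genes were the p38 genes, the 15 separating genes with a gene symbol and the largest difference in each direction that were well above background on at least 4 p38α-/- or 11 wild type arrays, and up to 4 called genes per list. Some genes under this rule are not reported here. Other names were added after their values were seen. The members and the lists were chosen with earlier results of these data known. The lists are incomplete, and called genes such as Lbp, Prg4 and Samd9l were on none of them. Alternatives were another background correction, probe rules, blocks, sets of arrays and each array left out.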

Additional observations from a re-analysis of the deposited data

Results flagged for a closer look

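Among 45 named genes, the p38α-/- arrays of 2 held a value far from the other 7. For Map2k6 it was the second anisomycin array, at 2.25 with the nearest other at 1.29. For Samd9l it was the second NaCl array, at 0.37 with the nearest other at 0.91. These arrays had the lowest shares of Cy5 spots well above background, 83.2% and 81.1%. Chance alone flags about 1 in 20 groups.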

How the results depend on the processing

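The 63 separating genes kept their sign under each alternative that fitted them on the ratio, except 2 genes with the brightest probe and 1 with spots well above background alone. Ankrd29 was one of them, at -0.18 with its brightest probe. Where an alternative only left out arrays, the rule of no overlap fixed the sign. Background correction by normexp gave 18 genes higher and 22 lower, 14 and 17 of them separating, with 56 calls for anisomycin, 30 for NaCl and 138 for untreated cells, and 30 of the 63 genes called. The scan day as a fixed block gave 77 higher genes. Within the shared scan day there were 75 higher genes, and 63 higher and 85 lower separating ones on fewer arrays. The matched stresses alone gave 59 lower separating genes, and 24, 5 and 15 calls for anisomycin, TNFα and NaCl. Without SB203580 arrays these were 42, 16 and 30. The series matrix gave 62 calls for TNFα and 95 for NaCl, and keeping outlier spots 92 for NaCl. Cy3 alone gave 0 higher genes and 1 lower gene.

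The adjusted p without the 2-fold threshold gave 1355 higher and 1354 lower genes, 71 and 97 of them not overlapping, and 176, 95 and 2212 calls for anisomycin, NaCl and untreated cells. The replicate block gave 42 higher and 89 lower genes and 134, 53 and 88 calls for anisomycin, TNFα and NaCl, and changed no call of a named gene. With the replicate number within each genotype as a block, calls were 203 for anisomycin, 84 for TNFα and 116 for NaCl. Leaving out 1 array gave 35 to 53 higher and 54 to 78 lower genes, 23 to 33 and 28 to 39 separating ones, 30 to 165 calls for anisomycin, 13 to 42 for TNFα, 25 to 166 for NaCl and 117 to 497 for untreated cells, and 0 of the 63 for SB203580. For TNFα the count lay between 19 and 26 without the first or second wild type TNFα array, or without the first array of NaCl for 45 min, of SB203580 with anisomycin or of SB203580 with TNFα. Where 1 array remained in a group, its spread was taken from the rest. With the matched stresses alone Tcf21 (1.30, adjusted p = 0.0533) and Igf2 (-1.03, adjusted p = 0.0828) were not called. The fixed scan day, the shared day, the single channels and the block within each genotype were chosen after seeing the data. The cause of these changes was not tested.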

Other observations

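Called genes that overlapped between the genotypes numbered 45. For some the scan days differed: Selenop (array name Sepp1), a selenium carrier, was at -1.60 on the first and -0.25 on the second p38α-/- arrays, and Adgrg1 (array name Gpr56), an adhesion receptor, at -1.38 and 0.04. Tln2, a talin that links integrins to actin, was at 2.61 and 0.70. Probes of Tln2 had opposite signs, at -0.36 and 2.1, and 9 wild type arrays lay inside its p38α-/- range. Ppfibp2, a liprin, had a difference of -1.53 (SE 0.10) with 4 wild type arrays inside the p38α-/- range. Rbfox1 (array name A2bp1), a splicing factor, differed by 1.36 (SE 0.18), with 3 inside. These genes were chosen after their values were seen.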
